A study of Homo sapiens with 6 samples.

Results

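The genes described here are 39 histone lysine methyltransferases and demethylases, of the 17452 genes in the deposited expression files. Members were taken by symbol from a list of lysine methyltransferase and demethylase genes outside the Polycomb repressive complex PRC2, without SETD7 and KDM1A, and all 39 symbols were found. The list holds 22 methyltransferase and SET protein genes and 17 demethylase genes. RNA sequencing was done on MDA-MB-231, an established human cell line from a triple-negative breast tumour, grown in medium with serum. The 3 siPHF20L1 libraries came from cells transfected with siRNA against PHF20L1, labelled as a knockdown, and the 3 siControl libraries from cells labelled as control. PHF20L1 is a nuclear reader of methylated lysines. Either of a pair of lipid reagents was used, and which library had which, the siRNA sequences and the time of harvest are not given in the sources used here. Both groups are 1 cell line with a transient knockdown, and the labels do not say whether libraries came from separate cultures, so that p-values measure only the spread between these libraries, which may be technical.

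Histone lysine methyltransferases, the writers, transfer methyl groups from S-adenosylmethionine to lysines of the histone tails or core, mostly through a SET domain. Demethylases, the erasers, remove them either by amine oxidation or through a JmjC domain that needs iron and 2-oxoglutarate. Methylated H3K4, H3K36 and H3K79 mark active promoters, enhancers and transcribed genes, while H3K9 and H3K27 methylation mark silent chromatin. Several members are recurrently mutated or amplified in breast and other tumours.

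Values are FPKM, fragments scaled to transcript length and library depth. How they were computed is not given in the sources used here, and 22 of the 39 members list several transcripts under 1 value. Comparisons of level between genes are therefore approximate. PHF20L1 had 2.67, 2.31 and 2.74 FPKM in siPHF20L1 libraries, against 15.75, 12.48 and 12.73 FPKM in siControl libraries. Every library followed its label, with a log2 difference of -2.03 (SE 0.10, limma, adjusted p = 1.46e-06). The depth estimated from the steps of low values was 17160000 to 17460000 fragments per library. Of the markers of this line, CD44 lay between 137 and 143 FPKM in all 6 libraries. VIM had 1010 to 1024 FPKM in siPHF20L1 libraries, against 1613 to 1644 FPKM in siControl libraries, and AXL had 249 to 259 FPKM in siPHF20L1 libraries, against 489 to 507 FPKM in siControl libraries. The part of these marker differences in the results was not tested. ESR1 was at 0 in every library, and PGR and CDH1 stayed at or under 0.45 FPKM. ERBB2 (25.8 to 31.5 FPKM) and EPCAM (2.02 to 5.13 FPKM) were not near 0. Among markers of other cell types, CD3E, CDH5 and PDGFRA were at or under 0.04 FPKM, while PTPRC reached 1.43 and PECAM1 0.50 FPKM. DCN and LUM were not used here. In both groups the libraries numbered 1 stood apart. The SD over genes of the log2 difference between the libraries numbered 2 and 3 was 0.107 among siPHF20L1 and 0.119 among siControl libraries, against 0.193 to 0.211 for pairs with a library numbered 1. Differences within the libraries numbered 1 and within those numbered 2 and 3 are therefore given beside the main ones.

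After the knockdown of PHF20L1 the members moved in both directions, and the largest rises were those of DOT1L, which encodes the H3K79 methyltransferase, and KDM2A, which encodes an H3K36 demethylase. DOT1L was 2.63-fold and KDM2A 2.29-fold higher in siPHF20L1 libraries by the ratio of mean FPKM. Among the members tested, the largest falls, of the H3K4 demethylase gene KDM5B and the H3K4 methyltransferase gene SETD1B, were smaller, at 1.51-fold and 1.49-fold. A gene was tested if it had at least 1 FPKM in at least 3 libraries, and 38 of the 39 members passed, KDM7A being the exception. Of the 38, 15 were higher in siPHF20L1 libraries, 8 were lower and 15 were past the 0.05 threshold in neither direction (limma on log2(FPKM + 1), adjusted p over all 11560 genes tested). Among all genes tested, 34% were called higher and 24.7% lower, so the members' shares lie near those of the whole transcriptome. A fit with the replicate number as block gave 18 members higher and 13 lower, the 15 and 8 among them. With that block 4946 of the 11560 genes tested were called higher and 3846 lower, more than without it. The share of called members that were higher depended on scaling. It was 65.2% with FPKM as deposited, 46.2% after quantile normalization (12 higher and 14 lower) and 48.3% with median-ratio size factors (14 higher and 15 lower). Over all called genes the share that was higher was 57.9%, 49% and 48.4% in the same order, so it depended on scaling too. In bulk RNA, fewer cells that express a gene and less of its RNA per cell cannot be told apart.

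Most of the members' differences were small. The median log2 difference was 0.08 over the 38 members and 0.05 over all genes tested, and the median of the absolute log2 difference was 0.26 and 0.28. With a log2 difference of at least 0.5 in size, 6 members were higher and 2 lower, where 16.2% of all genes tested passed both criteria upward and 9.14% downward. All siPHF20L1 libraries lay above all siControl libraries in 16 members (36.7% of all genes tested) and below them in 10 (27% of all genes tested), and the groups overlapped in 12. Ordered from the largest rise down, DOT1L ranked 129 and KDM2A 258 among the 11560 genes, within the top 1.12% and 2.23%.

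**Figure D1:**
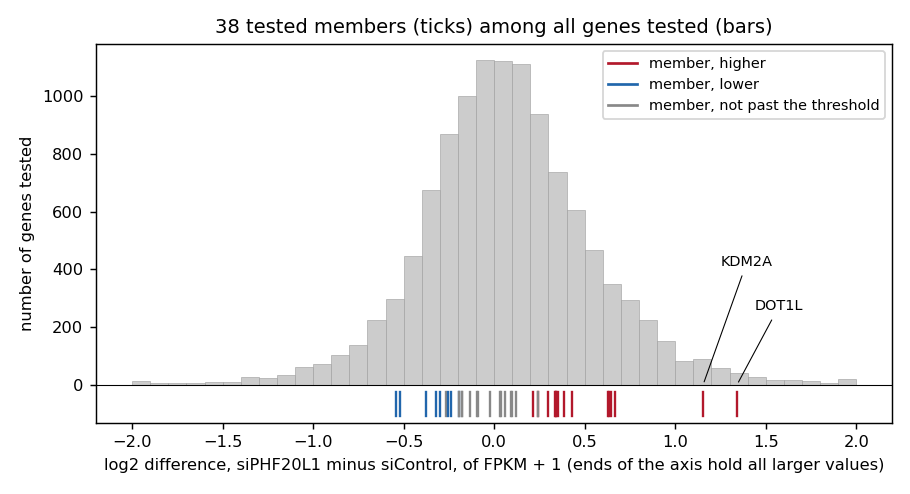
Bars count all 11560 genes tested by their log2 difference, siPHF20L1 minus siControl, on the log2(FPKM + 1) scale, and each tick below the bars is 1 of the 38 tested members. DOT1L at 1.34 and KDM2A at 1.15 stand in the right tail, and the other ticks lie between -0.55 and 0.67, inside the bulk of the genes.

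**Figure D2:**
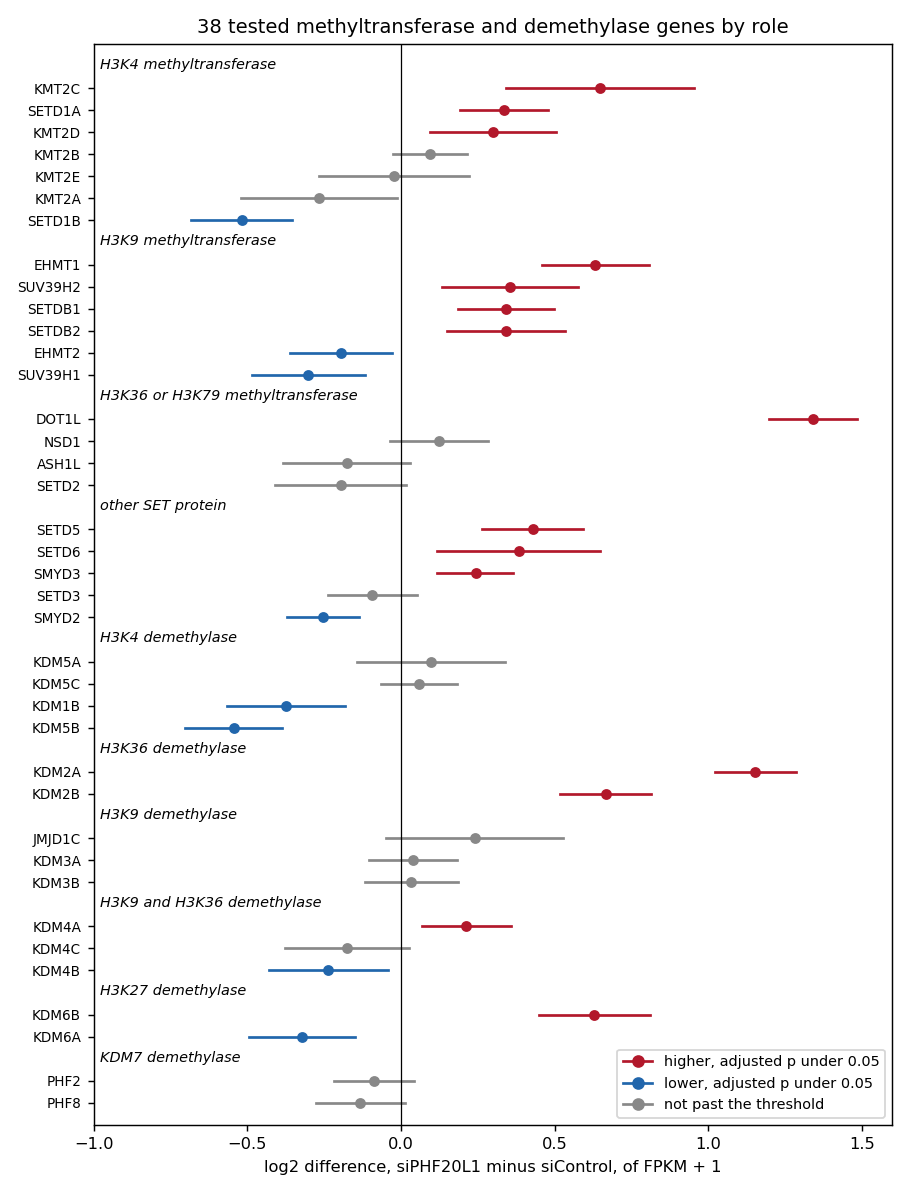
Log2 difference of each tested member, siPHF20L1 minus siControl, with its 95% confidence interval from limma, grouped by role. Red members were called higher, blue lower, and grey did not pass. H3K36 demethylase genes hold only red points, and H3K4 demethylase genes only blue and grey ones.

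The H3K4 methyltransferase genes did not move as a group. Of 7, 3 were higher, 1 was lower and 3 did not pass the threshold, where 34% of all genes tested were called higher and 24.7% lower. KMT2C, whose protein monomethylates H3K4 at enhancers and is often mutated in breast tumours, had 15.06, 11.59 and 11.94 FPKM in siPHF20L1 libraries, against 9.57, 6.75 and 7.32 FPKM in siControl libraries. The groups did not overlap, and in both of them the library numbered 1 was the highest. On the log2 scale they differed by 0.65 (SE 0.134, limma, adjusted p = 0.00313), with 0.60 for number 1 alone and 0.67 for numbers 2 and 3. Copies of parts of KMT2C elsewhere in the genome make its level uncertain.

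SETD1B, which encodes a methyltransferase of promoter H3K4, had 8.13, 7.34 and 7.46 FPKM in siPHF20L1 libraries, against 12.18, 10.99 and 10.97 FPKM in siControl libraries. Every siPHF20L1 library lay below every siControl library, by a log2 difference of -0.52 (SE 0.072, limma, adjusted p = 0.000367). Its paralogue SETD1A, which forms a complex of the same kind, went the other way, with 19.9 ± 0.827 FPKM in siPHF20L1 and 15.5 ± 0.690 FPKM in siControl libraries (SD, n = 3 each). That log2 difference was 0.34 (limma, adjusted p = 0.0018). KMT2D, the enhancer paralogue of KMT2C, was higher by 0.30 on the log2 scale, with 22.97 ± 2.07 FPKM in siPHF20L1 and 18.5 ± 1.85 FPKM in siControl libraries (SD, n = 3 each; limma, adjusted p = 0.0184). The KMT2D call was lost without siControl replicate 2 or 3, and over all alternatives its adjusted p reached 0.0822 (limma). KMT2A, the founding member of the family and a fusion gene of leukaemia, lay just outside the threshold, at 18.04 ± 2.34 FPKM in siPHF20L1 and 21.9 ± 2.87 FPKM in siControl libraries (log2 difference -0.27, limma, adjusted p = 0.0685). KMT2A passed in 7 of the 17 alternatives, the replicate block among them. KMT2B, which methylates H3K4 at promoters, differed by 0.10 (95% interval -0.03 to 0.22), and was called higher with the replicate block (limma, adjusted p = 0.0315). KMT2E, whose SET domain has no shown histone activity, differed by -0.02 (95% interval -0.27 to 0.22).

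H3K4 demethylase genes gave 2 falls and no rise among 4, where 24.7% of all genes tested were called lower and 34% higher. KDM5B, a JmjC enzyme that removes methyl groups from H3K4 and is highly expressed in many breast tumours, had 8.97, 8.71 and 8.90 FPKM in siPHF20L1 libraries, against 14.49, 12.70 and 13.02 FPKM in siControl libraries. The siPHF20L1 libraries lay close together and below all siControl libraries, with a log2 difference of -0.55 (SE 0.069, limma, adjusted p = 0.000211). For number 1 alone it was -0.64, and for numbers 2 and 3 it was -0.50. KDM1B, the amine oxidase of the list, fell to 7.42 ± 0.632 FPKM in siPHF20L1 libraries, against 9.92 ± 0.784 FPKM in siControl libraries (SD, n = 3 each; log2 difference -0.37, limma, adjusted p = 0.00467). The other JmjC genes KDM5A and KDM5C differed by 0.10 (95% interval -0.14 to 0.34) and 0.06 (95% interval -0.07 to 0.18) and did not pass the threshold in any of the 17 alternatives. KDM5C was the most abundant of these 4 genes, at 36.1 ± 1.13 FPKM in siPHF20L1 and 34.6 ± 0.902 FPKM in siControl libraries (SD, n = 3 each).

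All 6 H3K9 methyltransferase genes passed the threshold, 4 upward and 2 downward, where 34% of all genes tested were called higher and 24.7% lower. One of the 4, SETDB2, passed the filter on low values only through siPHF20L1 libraries. EHMT1, which encodes a subunit of the enzyme that mono- and dimethylates H3K9 in euchromatin, had 20.03, 23.94 and 23.02 FPKM in siPHF20L1 libraries, against 13.43, 14.20 and 14.40 FPKM in siControl libraries. No siPHF20L1 library came near the siControl values, with a gap of 0.63 on the log2 scale (SE 0.077, limma, adjusted p = 0.000161). EHMT2, whose protein is the partner of EHMT1 in that enzyme, was at 35.5 ± 1.89 FPKM in siPHF20L1 and 40.8 ± 3.17 FPKM in siControl libraries (SD, n = 3 each). This fall, with a log2 difference of -0.20, was just inside the threshold (limma, adjusted p = 0.0455). It was not called in 8 of the 17 alternatives, among them those without siPHF20L1 replicate 1, 2 or 3 and without siControl replicate 2 or 3.

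The genes for the trimethylating H3K9 enzymes divided as well. SUV39H1, which acts at pericentric heterochromatin, fell to 11.2 ± 1.17 FPKM in siPHF20L1 libraries, against 13.95 ± 0.35 FPKM in siControl libraries (SD, n = 3 each; log2 difference -0.30, limma, adjusted p = 0.0114). SUV39H2, its paralogue, rose to 7.65 ± 0.657 FPKM in siPHF20L1 libraries, against 5.77 ± 0.745 FPKM in siControl libraries (SD, n = 3 each; log2 difference 0.36, limma, adjusted p = 0.0128). Without siControl replicate 2 the SUV39H2 call was lost, and its adjusted p over the alternatives reached 0.072 (limma). SETDB1, which works with the corepressor TRIM28 at silenced repeats, had 10.9 ± 0.579 FPKM in siPHF20L1 and 8.39 ± 0.333 FPKM in siControl libraries (SD, n = 3 each; log2 difference 0.34, limma, adjusted p = 0.00255). SETDB2 was the scarcest member tested, at 1.18 ± 0.135 FPKM in siPHF20L1 and 0.717 ± 0.0929 FPKM in siControl libraries (SD, n = 3 each; log2 difference 0.34, limma, adjusted p = 0.00755). Given how it passed the filter, it had to be higher in siPHF20L1 libraries, and its call is no support for the count of rises. Quantile normalization ended the SETDB2 call (limma, adjusted p = 0.153). On the opposite strand, CERS2 overlaps 390 nt of the SETDB1 exons (CERS2 log2 difference -0.17, limma, adjusted p = 0.0183) and DCLRE1C 159 nt of those of SUV39H2 (DCLRE1C log2 difference -0.27, limma, adjusted p = 0.0368).

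The H3K9 demethylase genes KDM3A, KDM3B and JMJD1C did not pass the threshold. KDM3A and KDM3B differed by 0.04 (95% interval -0.10 to 0.18) and 0.03 (95% interval -0.12 to 0.19) on the log2 scale. JMJD1C, whose activity on histones is debated, had 18.5 ± 3.02 FPKM in siPHF20L1 and 15.5 ± 2.28 FPKM in siControl libraries (SD, n = 3 each), with the number 1 highest in both groups. Its log2 difference of 0.24 (limma, adjusted p = 0.134) was called with the replicate block. Of the genes for enzymes that act on trimethylated H3K9 and H3K36, KDM4A rose to 9.52 ± 0.311 FPKM in siPHF20L1 libraries, against 8.08 ± 0.240 FPKM in siControl libraries (SD, n = 3 each; log2 difference 0.21, limma, adjusted p = 0.0189). KDM4B, a gene induced by the oestrogen receptor in other breast lines, fell to 16.5 ± 1.79 FPKM in siPHF20L1 libraries, against 19.6 ± 0.996 FPKM in siControl libraries (SD, n = 3 each; log2 difference -0.24, limma, adjusted p = 0.0409). Over the 17 alternatives 5 did not call KDM4A, among them those without siPHF20L1 replicate 3 or siControl replicate 2, and 6 did not call KDM4B, among them those without siPHF20L1 replicate 1 or 3 and without siControl replicate 2 or 3. KDM4C, at 1.65 ± 0.144 FPKM in siPHF20L1 and 1.99 ± 0.239 FPKM in siControl libraries (SD, n = 3 each), differed by -0.18 (95% interval -0.38 to 0.03).

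DOT1L encodes the known methyltransferase of H3K79, an enzyme without a SET domain that acts on transcribed genes and is needed in leukaemias with KMT2A fusions. It had 40.49, 45.67 and 43.87 FPKM in siPHF20L1 libraries, against 16.07, 16.52 and 16.90 FPKM in siControl libraries. The groups lay far apart relative to their spread. DOT1L was higher by 1.34 on the log2 scale (SE 0.062, limma, adjusted p = 1.18e-06), with 1.28 for number 1 alone and 1.37 for numbers 2 and 3. From the estimated depth and a transcript of 7436 nt, these levels correspond to about 2055 to 5929 fragments per library. The gene PLEKHJ1 lies on the opposite strand, and in the GENCODE release 29 annotation its exons overlap 529 nt of those of DOT1L. PLEKHJ1 had 51.42, 73.34 and 73.07 FPKM in siPHF20L1 libraries, against 23.55, 29.73 and 28.29 FPKM in siControl libraries (log2 difference 1.24, limma, adjusted p = 0.000119). Whether the counting used strand is not given in the sources used here, and the part of the overlap in the rise of DOT1L was not tested.

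Genes for H3K36 methyltransferases did not share that rise. SETD2, which trimethylates H3K36 behind RNA polymerase II, had 19.2 ± 1.99 FPKM in siPHF20L1 and 22.2 ± 2.27 FPKM in siControl libraries (SD, n = 3 each; log2 difference -0.20, 95% interval -0.41 to 0.02). NSD1, which dimethylates H3K36, differed by 0.12 (95% interval -0.04 to 0.28) and ASH1L, another dimethylating enzyme, by -0.18 (95% interval -0.38 to 0.03). None of these 3 was called (limma, adjusted p = 0.103 for SETD2, 0.162 for NSD1 and 0.123 for ASH1L). Each of them was called with the replicate block.

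Both H3K36 demethylase genes rose, where 34% of all genes tested were called higher. Their proteins carry a CXXC zinc finger that binds CG dinucleotides without DNA methylation, beside the JmjC domain. KDM2A had 43.99, 41.44 and 43.13 FPKM in siPHF20L1 libraries, against 19.36, 17.82 and 19.00 FPKM in siControl libraries. The spread within each group was small beside the gap between them, with 1.15 on the log2 scale (SE 0.058, limma, adjusted p = 1.58e-06). Number 1 alone gave 1.14, and numbers 2 and 3 gave 1.16. KDM2B, which brings a variant Polycomb complex to CpG islands, had 9.99, 10.37 and 10.17 FPKM in siPHF20L1 libraries, against 5.82, 5.98 and 6.34 FPKM in siControl libraries. Again no library of one group reached the other, with a log2 difference of 0.67 (SE 0.065, limma, adjusted p = 4.68e-05). KDM2A and KDM2B were called higher in each of the 17 alternatives. RNF34 overlaps 439 nt of the KDM2B exons on the opposite strand and had a log2 difference of -0.06 (limma, adjusted p = 0.402).

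The files list a long and a short KDM2A transcript under 1 FPKM value, so the rise cannot be assigned to either. The 2 RefSeq start sites of the gene, each with 250 bases before and 50 after the start, are shown because they differ in the CG dinucleotides (capitals) that KDM2A itself binds when unmethylated. Coordinates are those of GRCh38.p14.
KDM2A, first start, chr11:67119013-67119312, plus strand: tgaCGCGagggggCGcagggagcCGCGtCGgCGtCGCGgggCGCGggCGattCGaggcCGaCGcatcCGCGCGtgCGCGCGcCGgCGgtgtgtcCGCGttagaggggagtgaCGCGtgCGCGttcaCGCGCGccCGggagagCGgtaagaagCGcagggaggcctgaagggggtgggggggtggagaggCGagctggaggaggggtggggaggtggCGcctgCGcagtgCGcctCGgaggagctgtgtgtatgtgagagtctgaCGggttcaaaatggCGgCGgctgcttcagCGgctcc
KDM2A, second start, chr11:67239764-67240063, plus strand: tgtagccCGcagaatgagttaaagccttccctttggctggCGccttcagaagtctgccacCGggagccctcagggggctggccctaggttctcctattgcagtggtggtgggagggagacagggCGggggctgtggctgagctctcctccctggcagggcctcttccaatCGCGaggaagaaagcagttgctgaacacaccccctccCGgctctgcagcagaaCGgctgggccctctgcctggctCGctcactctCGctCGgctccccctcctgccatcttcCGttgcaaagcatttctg
The first holds 44 CG and 72.7% G and C, the second 12 CG and 63.0%. Over the 54 starts of the 37 members that have one in the table, the median was 30 CG, and over 13956 starts of 9543 tested genes it was 25. The median was 29 for members called higher (21 starts of 14 genes), 36.5 for those called lower (8 starts of 7 genes) and 29.5 for those not past the threshold. No start was available for DOT1L and SETD1B. CG reads the same on both strands, and 99.3% of all these windows hold at least 1. These counts describe the letters and say nothing of methylation in these cells.

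The H3K27 demethylase genes moved in opposite directions. KDM6B, a JmjC enzyme gene that is induced in inflammation and differentiation, had 5.86, 4.96 and 5.23 FPKM in siPHF20L1 libraries, against 3.19, 3.14 and 2.96 FPKM in siControl libraries. Its groups were separate, by a log2 difference of 0.63 (SE 0.079, limma, adjusted p = 0.000194). KDM6A, the X-linked paralogue found in the KMT2C and KMT2D complexes, fell to 5.19 ± 0.250 FPKM in siPHF20L1 libraries, against 6.75 ± 0.474 FPKM in siControl libraries (SD, n = 3 each; log2 difference -0.32, limma, adjusted p = 0.00573). The KDM7 family, which removes methyl groups from H3K9, H3K27 or H4K20, gave no call. PHF8 had 10.3 ± 0.436 FPKM in siPHF20L1 and 11.4 ± 0.316 FPKM in siControl libraries, and PHF2 had 14.6 ± 0.396 FPKM in siPHF20L1 and 15.6 ± 0.205 FPKM in siControl libraries (SD, n = 3 each). Their groups did not overlap, but neither log2 difference, -0.13 and -0.09, was called (limma, adjusted p = 0.104 and 0.207). PHF8 was called lower with the replicate block (limma, adjusted p = 0.0197). KDM7A, too low to be tested, was at 0.49, 0.44 and 0.39 FPKM in siPHF20L1 libraries, against 0.93, 0.69 and 0.71 FPKM in siControl libraries. That is about 63 to 148 fragments per library, and without the filter on low values its log2 difference was -0.30 (limma, adjusted p = 0.0157).

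Of the 5 SET proteins with mainly other substrates or debated activity, 3 rose, 1 fell and 1 did not pass. Over all genes tested, 34% were called higher and 24.7% lower. SETD5 was the most abundant member, at 62.5 ± 4.01 FPKM in siPHF20L1 and 46.1 ± 3.37 FPKM in siControl libraries (SD, n = 3 each; log2 difference 0.43, limma, adjusted p = 0.000994). SMYD3, whose protein methylates a kinase of the MAP kinase pathway, rose to 21.5 ± 0.395 FPKM in siPHF20L1 libraries, against 18.1 ± 0.307 FPKM in siControl libraries (SD, n = 3 each; log2 difference 0.24, limma, adjusted p = 0.00466). SMYD2, which methylates p53, fell to 29.4 ± 0.275 FPKM in siPHF20L1 libraries, against 35.3 ± 0.666 FPKM in siControl libraries (SD, n = 3 each; log2 difference -0.25, limma, adjusted p = 0.00259). SETD3, an actin histidine methyltransferase, differed by -0.09 (95% interval -0.24 to 0.05) and was called lower with the replicate block (limma, adjusted p = 0.0342). SETD6, which methylates the NF-kB subunit RELA, was at 2.45 ± 0.365 FPKM in siPHF20L1 and 1.65 ± 0.335 FPKM in siControl libraries (SD, n = 3 each; log2 difference 0.38, limma, adjusted p = 0.0197). That difference was 0.07 for number 1 alone and 0.54 for numbers 2 and 3, and the call was lost without siPHF20L1 replicate 2 and without siControl replicate 2.

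**Figure D3:**
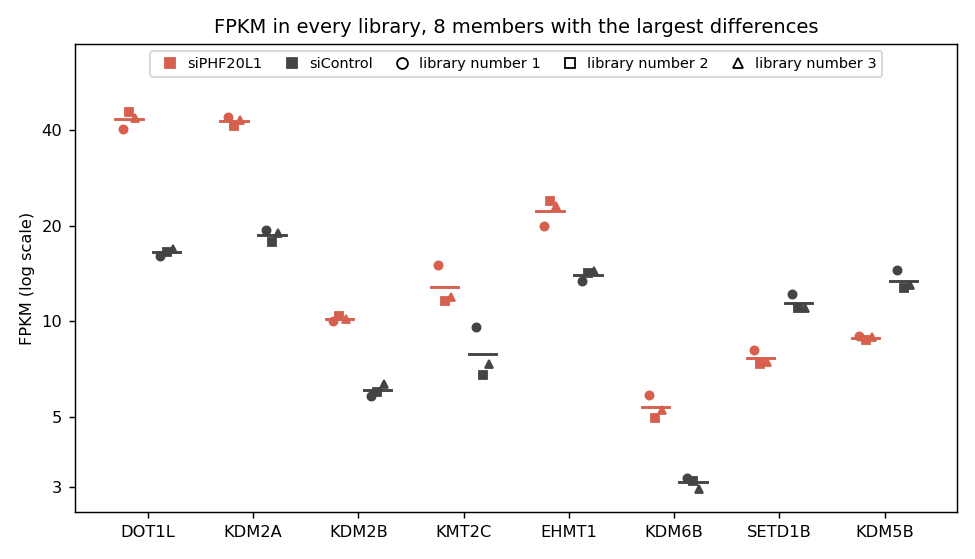
FPKM on a log scale for the 8 members called with a log2 difference of at least 0.5 in size, siPHF20L1 libraries in red left of siControl libraries in grey. Symbols mark the library number and lines the group means. In each gene the red and grey points do not overlap. KMT2C has its highest value in the library numbered 1 of both groups.

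Because some close paralogues went in opposite directions, the ratio of FPKM within each library was set out for 9 pairs, chosen after the values were seen. In 4 pairs the genes were called in opposite directions, in 3 in the same direction, and in 2 neither was called. Of all genes tested, 34% were called higher and 24.7% lower, and the pairs were chosen on these values, so these counts support nothing. The ratio of KDM6A to KDM6B was 0.928, 1.048 and 0.945 in siPHF20L1 libraries, against 2.285, 2.035 and 2.223 in siControl libraries. The pair was thus near equal in siPHF20L1 libraries, while KDM6A was the more abundant in every siControl library. SETD1A was 2.60 ± 0.109 times SETD1B in siPHF20L1 and 1.37 ± 0.127 times in siControl libraries (SD, n = 3 each). EHMT1 was 0.629 ± 0.026 times EHMT2 in siPHF20L1 and 0.344 ± 0.015 times in siControl libraries (SD, n = 3 each). SUV39H1 was 1.48 ± 0.252 times SUV39H2 in siPHF20L1 and 2.44 ± 0.286 times in siControl libraries (SD, n = 3 each). KDM2A was 4.21 ± 0.205 times KDM2B in siPHF20L1 and 3.10 ± 0.195 times in siControl libraries (SD, n = 3 each). The ratios did not overlap between the groups in 8 pairs, and each of these 8 had an exact two-sided permutation p of 0.1, the smallest that 3 against 3 libraries allow (0.113 adjusted over the 9 pairs). Since the pairs were chosen on these values and 36.7% and 27% of all single genes tested lay wholly above or below the siControl libraries, this count supports nothing. Only KDM3A to KDM3B overlapped, at 1.13 ± 0.021 in siPHF20L1 and 1.13 ± 0.027 in siControl libraries (SD, n = 3 each; exact permutation p = 0.8).

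**Figure D4:**
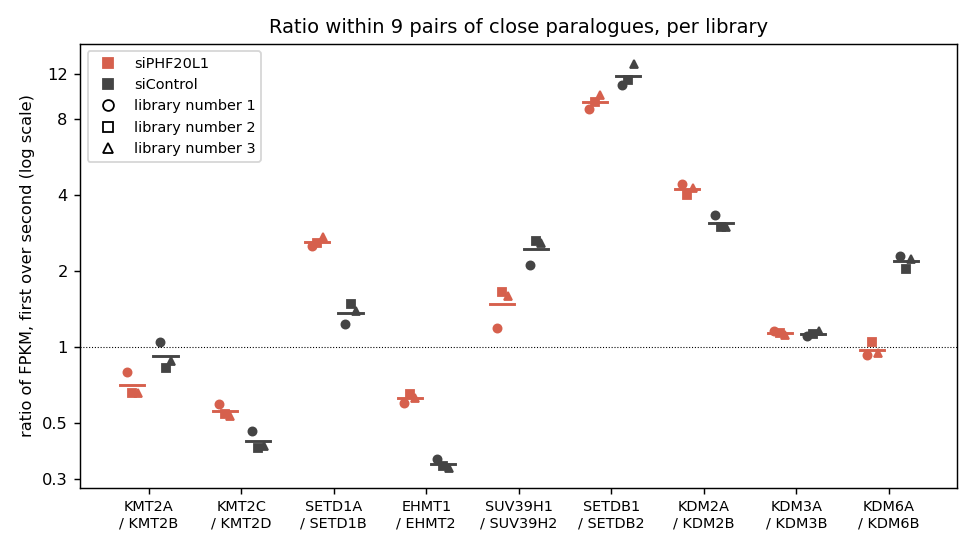
Ratio of FPKM, first gene over second, on a log scale in every library for 9 pairs of paralogues, siPHF20L1 libraries in red left of siControl libraries in grey, with lines at the group means. KDM6A over KDM6B is near 1 in siPHF20L1 and near 2 in siControl libraries, and KDM3A over KDM3B coincides in both groups.

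Summed over members of a role, most levels differed little. H3K36 demethylase genes together had 53.0 ± 1.11 FPKM in siPHF20L1 and 24.8 ± 0.847 FPKM in siControl libraries (SD, n = 3 each), 2.14-fold higher. The H3K36 or H3K79 methyltransferase genes together had 87.2 ± 0.917 FPKM in siPHF20L1 and 63.8 ± 3.85 FPKM in siControl libraries (SD, n = 3 each), with DOT1L as the only called gene among them. For the other roles the ratio of the summed levels, siPHF20L1 over siControl, lay between 0.913 and 1.09. The H3K9 methyltransferase genes summed to 88.7 ± 4.12 FPKM in siPHF20L1 and 83.6 ± 2.87 FPKM in siControl libraries (SD, n = 3 each).

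Other genes of the pathway were taken as a list of 53 subunits, partners and related enzymes, of which 51 were tested. Among these, 16 were higher, 11 lower and 24 did not pass (limma, adjusted p under 0.05), against 34% and 24.7% of all genes tested. The block gave 23 higher and 18 lower, where it called 4946 of the 11560 genes tested higher and 3846 lower. The largest rises were those of SMYD5, FBXL19 and MLLT6. SMYD5, a relative of SMYD2 and SMYD3, had 30.2 ± 1.09 FPKM in siPHF20L1 and 15.6 ± 0.265 FPKM in siControl libraries (SD, n = 3 each; log2 difference 0.91, limma, adjusted p = 4.09e-06). FBXL19, which shares the CXXC finger with the KDM2 proteins, differed by 0.63 (limma, adjusted p = 0.000356), and MLLT6, a partner of DOT1L, by 0.60 (limma, adjusted p = 8.7e-05). Of the 6 DOT1L partner genes tested, MLLT6 and AFF4 were higher, none was lower and 4 did not pass. The share that was higher is near the 34% of all genes tested.

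MORF4L1, whose chromodomain reads H3K36 methylation, fell most, to 63.7 ± 4.03 FPKM in siPHF20L1 libraries, against 121.9 ± 7.44 FPKM in siControl libraries (SD, n = 3 each; log2 difference -0.93, limma, adjusted p = 1.06e-05). BCOR and SKP1, whose proteins occur in the Polycomb complex with KDM2B, differed by -0.77 (limma, adjusted p = 1.76e-05) and -0.60 (limma, adjusted p = 0.00109), while PCGF1 of the same complex was higher by 0.24 (limma, adjusted p = 0.0367). Among 13 subunits of the H3K4 methyltransferase complexes, 4 were higher and 5 lower, against 34% and 24.7% of all genes tested. Of the core shared by these complexes, ASH2L differed by -0.43 and DPY30 by -0.39, RBBP5 by 0.27, and WDR5 by 0.13, which was not called (limma, adjusted p = 0.000756 for ASH2L, 0.000546 for DPY30, 0.0368 for RBBP5 and 0.108 for WDR5). With the replicate block WDR5 was called higher (limma, adjusted p = 0.00444). AFF4, PCGF1 and these core subunits were named after their values were seen.

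Most members had the same direction in both sets of libraries. Of the 38 members, 36 had the same sign for number 1 alone as for numbers 2 and 3, all 23 called members among them. The calls come from these same libraries, so the agreement of called members is no further support. The share over all genes tested was not counted. Of the 23, 14 were called in all 17 alternatives, 8 higher and 6 lower, and KDM6B was called in each of the 16 in which it was tested. The matching share over all called genes was not counted, so whether the members kept their calls more often than other genes was not tested. The libraries numbered 1 were higher for long transcripts. Over the 39 members the Spearman correlation of transcript length with the log2 ratio of number 1 to numbers 2 and 3 was 0.45 in siPHF20L1 and 0.48 in siControl libraries, and over 11339 genes it was 0.32 in siPHF20L1 and 0.43 in siControl libraries. The points share their libraries, and the values are a description. The 12 members of at least 8000 nt had a median of 0.16 in siPHF20L1 and 0.20 in siControl libraries on this scale, and the 27 shorter members had 0.06 in siPHF20L1 and 0.05 in siControl libraries. KMT2C, JMJD1C and KMT2A were among the long members that deviated in both groups alike.

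**Figure D5:**
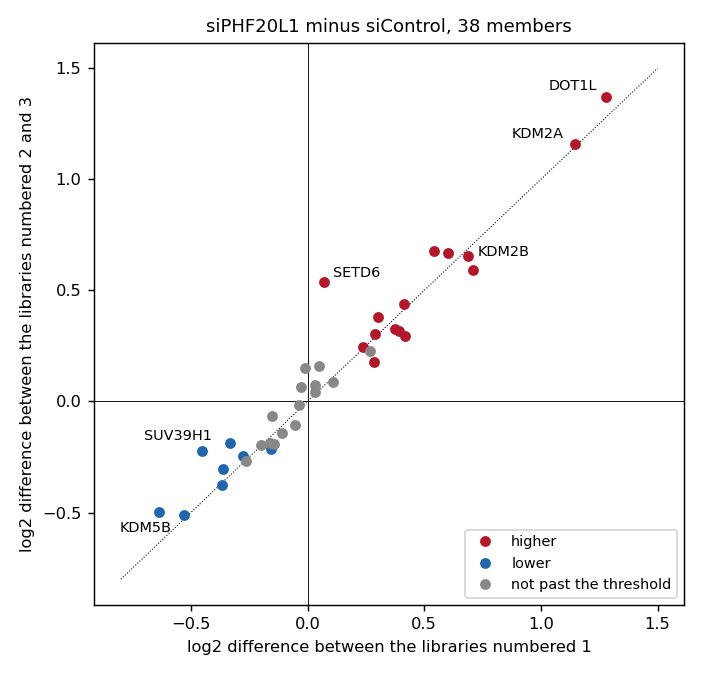
Each point is 1 of 38 tested members, with its log2 difference, siPHF20L1 minus siControl, for number 1 alone on the horizontal axis and for numbers 2 and 3 on the vertical axis, and a dotted line of equality. Points follow the line, and SETD6, at 0.07 and 0.54, lies farthest from it.

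The 3′ UTRs were searched on the transcript strand for the words CAAGAT and TAAGGA, which can share 1 base where the second follows the first. These words had been picked earlier on the log2 differences of these same libraries as frequent in genes that fell, so counts of them support nothing. Of the 8 members called lower, 5 carried a word (62.5%), against 57.5% of all lower genes. Of the 15 members called higher, 6 did (40%), against 44.4% of all higher genes, and of all 38 members 17 did (44.7%), against 48.5% of all genes tested. The members' shares thus lie near those of all genes called the same way. Sites of 30 bases are shown for KDM5B and SETD1B, the members that fell most, and for KDM2A, which carries the word too and rose, with the word in capitals and GRCh38 coordinates.
KDM5B, chr1:202727791-202727820, minus strand: tggaaggaaatcTAAGGAaaattaatcctc
KDM5B, chr1:202726082-202726111, minus strand: tgggtattagtgCAAGATtagcctaagaat
KDM5B, chr1:202725310-202725339, minus strand: taaatccatcttCAAGATgtaaagaatcaa
SETD1B, chr12:121831717-121831746, plus strand: cggagtcctcatCAAGATgagcgcgctcca
SETD1B, chr12:121831943-121831972, plus strand: gcccgccggtttCAAGATcaaggaaattgg
SETD1B, chr12:121832327-121832356, plus strand: gtttgcaataatCAAGATatgtgtcgagtc
KDM2A, chr11:67255242-67255271, plus strand: tcctctccctccTAAGGAaaagggagtagc
KDM2A, chr11:67256480-67256509, plus strand: gctccccctctgTAAGGAtactgatagcac
KDM5B and SETD1B have 3 sites each and KDM2A has 2. A match is a description of the letters and not a site of action.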

How the data were processed

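Poly-A RNA of MDA-MB-231 cells was sequenced from a stranded mRNA kit, per the labels' protocols. The deposited unit is FPKM, per the file headers, with 1 value per gene and library, written by the authors to 2 decimals. HTSeq 0.6.0, TopHat2 2.1.1, Bowtie 0.12.2 and the build GRCh37 appear, without role or order, per the submitters' processing notes. The annotation, the computation of FPKM and the use of strand in counting are not given in the sources used here. Groups followed the labels.

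Genes with at least 1 FPKM in at least 3 libraries were tested with limma 3.58.1 (R 4.3.3, intensity trend, two-sided) on log2(FPKM + 1), siPHF20L1 minus siControl, with Benjamini-Hochberg adjustment over 11560 genes and a threshold of 0.05. A fold change on this scale understates that of low genes. The procedure was tested on simulated data with 200 changed genes. Ratios of paralogues were compared by an exact permutation test (SciPy 1.17.1, Python 3.11.15). Depth was estimated from the steps of FPKM times transcript length among low genes, and a whole multiple of a step would score as well. Promoter sequences are from RefSeq (GRCh38.p14), and transcripts and 3′ UTRs from GENCODE release 29 (GRCh38), so their coordinates are not of the files' build.

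Replicate numbers were checked for pairing by the correlation of deviations from the group means across genes. Same-numbered libraries gave 0.73, 0.44 and 0.42, while siPHF20L1 2 with siControl 3 gave 0.49. The libraries numbered 1 thus deviated alike. Whether numbers 2 and 3 are paired cannot be told from these values, because deviations from a group mean sum to 0 and number 1 stands apart. The fit had no block, and the replicate block was an alternative. The other alternatives were pseudocount 0.1, no filter, a minimum of 5 FPKM, quantile normalization, median-ratio size factors, equal sums, no trend, the number 1 as a batch term, subsets by number, each library left out, and libraries 2 and 3 averaged.

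The members and lists were chosen with earlier results of these data known. Members called with a log2 difference of at least 0.5 are given in every library, other called members by mean, and of the other pathway genes the 3 largest rises and falls among those called.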

Additional observations from a re-analysis of the deposited data

How the results depend on the processing

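PHF20L1 had a log2 difference of -2.19 between the libraries numbered 1 alone, a value with no test. The count of members called higher, 15 as reported, did not move by over 1.5 times in any alternative. Its lowest value was 10, with the libraries numbered 2 and 3 averaged, a setting in which 6 members were called lower. The count of members called lower, 8 as reported, was 14 under quantile scaling and 15 under median-ratio scaling. It was 13 both with the replicate block and with the number 1 as a batch term. Over all genes tested, 2851 were lower as reported, 3495 under quantile scaling, 3540 under median-ratio scaling, 3846 with the block and 3870 with the batch term. Of the other pathway genes, 11 as reported were lower, and 18 under quantile scaling, 17 under median-ratio scaling, 18 with the replicate block, 19 with the batch term and 19 in the libraries numbered 2 and 3 only. Higher were 16 as reported and 9 with the libraries numbered 2 and 3 averaged, an alternative chosen after seeing the data. The cause was not tested. With each library left out in turn, 11 to 16 members were higher and 6 to 9 lower, and 10 to 16 other pathway genes were higher (10 without siPHF20L1 replicate 3) and 11 to 15 lower. Over all genes tested, between 5735 and 6940 were called when a library was left out. Of 642 tested values of single members under these settings, 561 kept their direction and their side of the threshold, 41 passed it newly and 32 no longer passed it. The other 8 changed sign without being called under either setting. These were KDM3A (-0.017) and KDM3B (-0.024) under quantile scaling, KDM3A (-0.036), KDM3B (-0.041) and KDM5C (-0.018) under median-ratio scaling, and KMT2E, which was above 0 without siPHF20L1 replicate 2 or 3 or siControl replicate 1 and lay between -0.114 and 0.076 with each library left out. In the libraries numbered 1 only, which allow no test, 7 members moved by more than the spread between replicates.

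Members with few fragments, such as SETD6, SETDB2, KDM4C and KDM7A, carry the least precision. FPKM hold no counts, so counting error was not modelled, and 3 libraries per group, with the numbers 2 and 3 very close, limit every estimate of spread.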
